A study of Mus musculus with 9 samples.

Results

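Transcripts of 10 genes of the oocyte RNA interference (RNAi) and PIWI-interacting RNA (piRNA) pathways were followed across XX, XO and XY mouse oocytes. The genes were Dicer1, Ago1, Ago2, Ago3, Piwil2, Mael, Ddx4, Tdrd1, Tdrd9 and Mov10l1, taken by their names from a matrix of 28052 genes. All 10 were found in the matrix, and 9 of them passed the filter on low counts that left 10993 genes for testing. Mov10l1 did not pass it and is given by its levels alone.

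Growing mouse oocytes silence RNA with small RNAs of different origins. In RNAi, the nuclease Dicer1 cuts double-stranded RNA or microRNA precursors into short guides, which Argonaute proteins (Ago1 to Ago4) carry to complementary transcripts. The mouse oocyte is known for an active endogenous RNAi pathway that acts on retrotransposons and on some messenger RNAs, and Ago2 is the Argonaute best known for cutting its target. In the piRNA pathway, PIWI proteins such as Piwil2 carry longer guides that are made without Dicer1, and Mael, Ddx4, Mov10l1 and the Tudor proteins Tdrd1 and Tdrd9 work with them in granules of the germ cell cytoplasm.

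The 3 genotypes were XX, XO and XY, with 3 pools each, and the labels give strain C57BL/6 and an age of 18 days postpartum for all 9 pools. XY females, in which the Y chromosome of B6.YTIR fails to direct testis formation, and their XX littermates came from B6.YTIR males mated with C57BL/6J females. XO females came from another cross, of Paf (patchy fur) carrier males, whose daughters can lack the paternal sex chromosome and whose line had been backcrossed from C3H/HeSnJ, so the cross and the absence of the second sex chromosome cannot be told apart in any comparison with XO. Each pool held 30 oocytes in the growth phase, 10 of 50–55 µm and 20 of 55–60 µm in diameter, and how many females gave the oocytes of a pool is not given in the sources used here. Spread between pools is therefore spread between pooled samples. The methods call them biological triplicates.

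Promoter sequences show what the members share outside the measured levels. RefSeq promoters (GRCm38.p6, the 250 bases before a transcript start) were found for 8 of the 10 members, in 11 promoters, and those of Ago2 and Piwil2 were not analysed here. The E-box CACGTG, which reads the same on both strands, occurred in 6 of these 11 promoters against 6.02% of all 32851 promoters. It was present in Ddx4, Mael, Mov10l1, Tdrd1 and Tdrd9, which are the 5 piRNA pathway members with a promoter entry, and not found in this window of Dicer1, Ago1 and Ago3. This contrast, for which the windows are printed, rests on few genes. The promoters at a pair of Tdrd1 starts share an E-box, and another Tdrd1 promoter had none. The Dicer1 promoter lies at the 5′ end of the gene, so the start inside an intron that mouse oocytes use was not examined. The windows of at most 30 bases around each of the 6 E-boxes are printed 5′ to 3′ on the strand of the gene, with the E-box in capitals.
Ddx4: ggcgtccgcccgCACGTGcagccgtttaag
Mael: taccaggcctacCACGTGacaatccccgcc
Mov10l1: ccttCACGTGctaaccgccaac
Tdrd1: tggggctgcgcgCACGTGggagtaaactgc
Tdrd9, distal: ggtctccataaaCACGTGcctgtccaggtc
Tdrd9, proximal: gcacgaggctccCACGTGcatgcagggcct

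The Ddx4 window lies at chr13:112652322-112652351 on the minus strand, with its E-box 29 bases before the RefSeq start but inside the longer GENCODE gene. The Mael window is at chr1:166238950-166238979 on the minus strand, 223 bases before the start. The Mov10l1 window, at chr15:88982744-88982765 on the plus strand, is cut short by the edge of the promoter, as its E-box begins 246 bases before the start. The Tdrd1 window, at chr19:56826186-56826215 on the plus strand, belongs to a pair of alternative starts, 11 and 77 bases downstream of the same E-box. Tdrd9 carries a distal window at chr12:111971382-111971411 and a proximal window at chr12:111971452-111971481, both on the plus strand, 165 and 95 bases before the start. A match describes the letters alone, and no binding was measured here.

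The E2F motif GGCGGGAA, searched on both strands, occurred in the Ddx4 promoter and in no other member's, against 1.86% of all promoters. The TATA motif TATAAA, also searched on both strands, occurred in 0 of the 11 member promoters and in 12.4% of all. CpG dinucleotides numbered at least 15 in 8 of the 11, against 27.3% of all promoters. The highest number was 39 in Dicer1, followed by 31 in Ddx4, 28 and 26 in the 2 promoters of Ago1, 27 in Ago3 and 22 in 1 of the 3 promoters of Tdrd1. The others held 19 in Mov10l1, 18 in Mael, 11 and 3 in the remaining Tdrd1 promoters, and 8 in Tdrd9.

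All 10 genes are autosomal. In the deposited coordinates (GRCm38), Dicer1 and Tdrd9 lie on chromosome 12, Ago2 and Mov10l1 on chromosome 15, and Ago1 and Ago3 are neighbours on chromosome 4, 5455 bp apart on the same strand. Ago2 overlaps Chrac1 and Tdrd9 overlaps Rd3l, each on the opposite strand, and the reads were aligned in stranded mode. Piwil2 and Mov10l1 hold small nuclear or nucleolar RNA genes on their own strand.

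The libraries counted transcripts by unique molecular identifiers (UMIs) at the 5′ end, with 2130145–3157338 gene UMIs per pool. Normalized CPM is the UMI count divided by the gene total of the pool and by a factor from the ERCC spike-in RNAs, on the scale of CPM. These factors left a sum of 802037–888533 in XX, 1181293–1422594 in XO and 864867–990044 in XY pools. Since a UMI counts a captured molecule once, levels of different genes are compared without division by length. The longest transcripts of the members ranged from 1691 nt (Mael) to 15595 nt (Ago3). Whether capture depends on length was not tested. A total of 3 UMIs over a genotype, taken as the lowest detectable amount, corresponds to 0.335 (XX), 0.532 (XO) and 0.351 (XY) normalized CPM, which covers counting error alone. Y-linked genes had 2331–2437 UMIs in XY pools and 104–187 in the others. The summed level of 10 oocyte markers was 18254–38387 normalized CPM in the 9 pools. Granulosa cell markers, of which 8 of 11 were analysed, with Amhr2, Inha and Wt1 at 0 UMIs in XX, summed to 48.0–66.7 in XX, 55.9–67.7 in XO and 57.0–92.1 in XY. Markers of theca and stroma reached at most 8.55 and those of blood at most 1.69, and the part of any other cell type in the results was not tested. The library XO1 stood apart from XO2 and XO3, with Spearman coefficients of 0.676 and 0.616 to them over all tested genes against 0.932 to XY1, so results with XO that were called are also given without it.

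Levels of the 10 genes spanned a wide range. Dicer1 was the most abundant, at place 151 of 28051 genes by the mean of the 9 pools, and Ddx4, an RNA helicase known as the vasa homolog, followed at place 268. Tdrd1 was at place 836 and Ago3 at place 1123. The order of the 4 most abundant members, Dicer1, Ddx4, Tdrd1 and Ago3, held for the mean of every genotype. Ago2 followed at place 4128, then Mael, Tdrd9, Ago1, Piwil2 and, at place 11412, Mov10l1. Mael, Tdrd9 and Ago1 had means of 15.1 ± 1.44, 12.9 ± 1.38 and 10.4 ± 5.67 normalized CPM in XX (SD, n = 3) and changed places among the genotypes, and their pools overlapped with one another in XX and XO. In XY, every pool of Tdrd9 was below every pool of Mael and Ago1, which overlapped. Tdrd1 and Ago3 did not overlap in XX, at 125–187 and 69.7–94.0, but did in XO and XY.

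**Figure D1:**
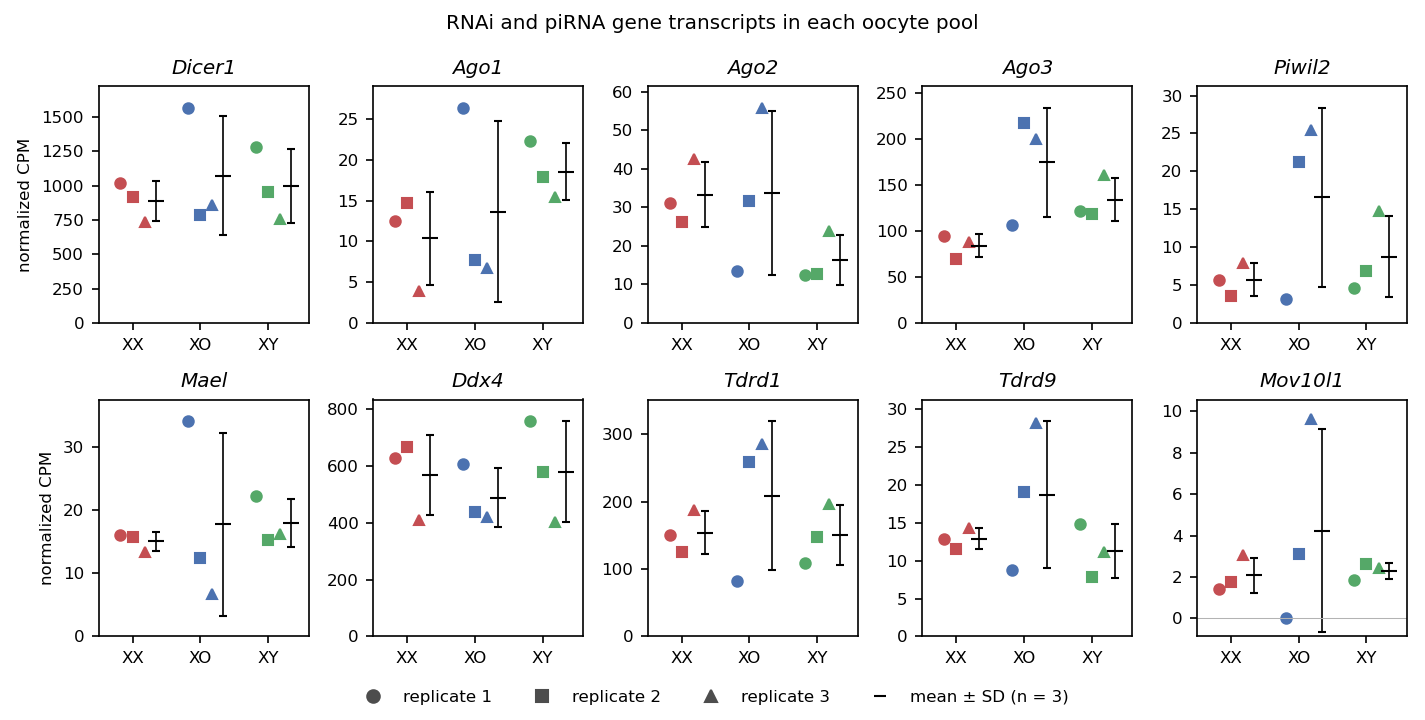
Normalized CPM of the 10 genes (vertical axes, linear, a scale for each gene) in each pool of XX, XO and XY oocytes, with the replicate number as symbol and the mean ± SD of 3 pools as bar. By SD, the 3 XO pools spread the most for every gene except Ddx4, and the 3 XX pools lie below both other genotypes for Ago3.

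The design sets XX against XO and XX against XY, to ask what the second X chromosome or its replacement changes, and XY against XO, to ask what the Y chromosome adds. Over all 10993 genes, edgeR's quasi-likelihood test called 18.1% at an unadjusted p below 0.05, the threshold of the study, between XX and XO, with 1.40% higher and 16.7% lower in XX. Among the members, 1 of 9 was called, Ago3, which was lower in XX. Between XX and XY, 5.80% of all genes were called, 1.41% higher and 4.39% lower in XX, and 0 of 9 members. Between XY and XO, 9.93% were called, 1.69% higher and 8.24% lower in XY, and again 0 of 9 members. In no comparison was the share of members called above that of all genes. The paper, with surrogate variables in its model, reported the opposite direction, many autosomal genes being lower in XO than in XX or XY oocytes. The source of this difference in direction was not tested.

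No member passed the Benjamini-Hochberg adjustment of edgeR in any comparison, where 0, 9 and 4 of all genes did. DESeq2 with the spike-in factors called 2, 0 and 0 members at an unadjusted p below 0.05, against 21.2%, 6.33% and 12.1% of all genes. With its own size factors it called 1, 1 and 0, against 13.7%, 5.25% and 10.3% of all genes. The median log2 fold change of all tested genes was -0.46 for XX against XO, -0.19 for XX against XY and -0.30 for XY against XO. The median of the 9 members was -0.40, -0.16 and -0.38. TMM factors of the genes instead of the spike-ins moved the medians of all genes to between -0.04 and -0.02, so a fold change of a member is best read against the median of all genes in the same comparison. The spike-in factor compares the spike-ins with each other, and the ratio of spike-in to gene UMIs does not enter it. Spike-ins made up 0.204% (XX3) to 0.862% (XY1) of the spike-in and gene UMIs of a pool. The medians above and the sums of normalized CPM therefore do not measure the amount of RNA per oocyte or per pool.

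Without XO1 the calls were more numerous. Of the members, 4 were then lower in XX than in XO, Ago3, Piwil2, Tdrd1 and Tdrd9, while 35.1% of all genes were called. Between XY and XO, 6 members were called, with Ago1 and Mael higher and Ago2, Piwil2, Tdrd1 and Tdrd9 lower in XY, against 29.9% of all genes. The fit without XO1 kept XY1, the pool nearest to XO1 (Spearman 0.932), and had no replicate block. Pool number and genotype are therefore partly confounded in it, and the part of the pool number in these calls was not tested. Ago3 and Piwil2 in XX against XO also passed the edgeR adjustment without XO1, as did 2633 of all 11590 genes tested in that fit. The values of both stand with each gene.

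**Figure D2:**
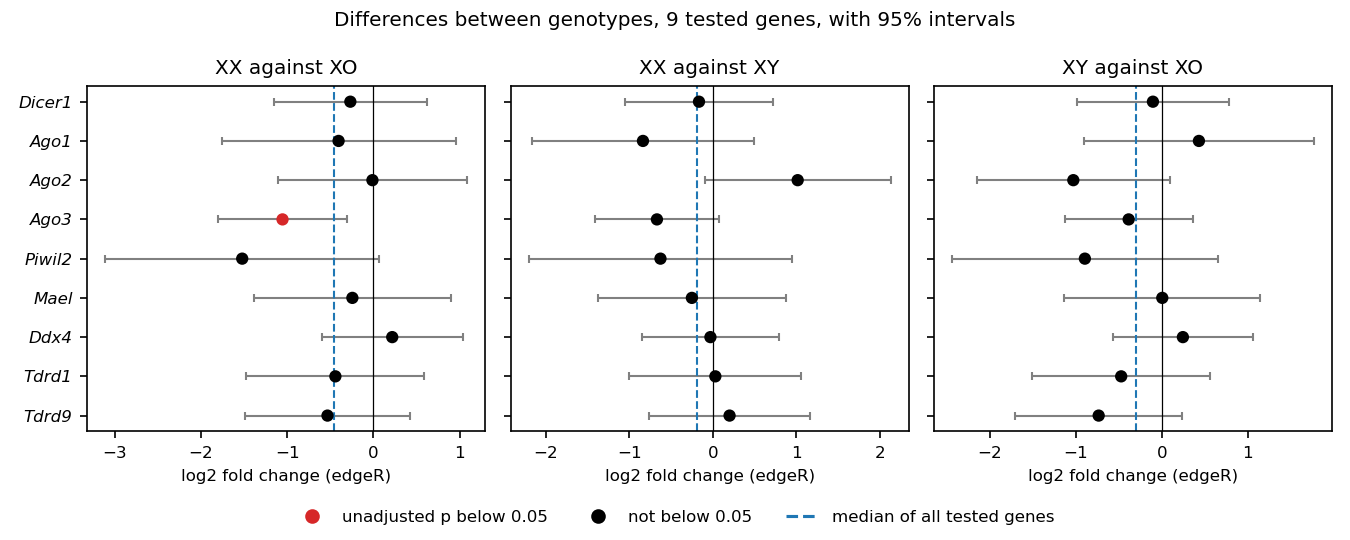
Log2 fold change of the 9 tested genes (horizontal axes, edgeR) in the 3 comparisons, the first genotype minus the second, with 95% intervals as bars and the median of all tested genes as a dashed line. Only the interval of Ago3 in XX against XO excludes 0, and that of Ago2 in XX against XY reaches from -0.10 to 2.13.

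Dicer1, the enzyme that cuts precursors into small RNAs, was at 1017, 919 and 733 normalized CPM in the XX pools 1, 2 and 3. The XO pools were at 1569, 784 and 859, and the XY pools at 1283, 955 and 755. Pool 1 was the highest in every genotype, and the genotypes overlapped. The edgeR log2 fold change of XX against XO was -0.27 ± 0.40 (SE), that of XX against XY -0.16 ± 0.40 and that of XY against XO -0.10 ± 0.40, with 95% intervals from -1.15 to 0.62, from -1.05 to 0.72 and from -0.99 to 0.78. The intervals do not exclude differences near 1 log2 unit. Mouse oocytes use a Dicer1 transcript that starts inside an intron, and the gene-level UMI count does not separate it from the somatic form.

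Ago3, an Argonaute that carries small RNA guides, was the Argonaute with the most UMIs in every pool. Its level was 94.0, 69.7 and 88.0 normalized CPM in the XX pools, 106, 217 and 200 in the XO pools, and 122, 118 and 160 in the XY pools. All XX pools were below all XO pools and all XY pools, while XO1 was below every XY pool. The mean was 2.08-fold higher in XO than in XX, and the log2 fold change of XX against XO was -1.05 ± 0.34 (edgeR adjusted p = 0.204), or -0.60 relative to the median of all genes. Against XY it was -0.67 ± 0.33 (edgeR adjusted p = 0.938), and XY against XO gave -0.38 ± 0.33 (edgeR adjusted p = 0.664). Without XO1 the difference between XX and XO was -1.26, with an edgeR adjusted p of 0.0103. It was lower in XX in all 17 alternative fits of the XX against XO comparison and called in 13, and not called with TMM factors of the genes, without XX1, without XX2 or on the batch-regressed values.

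Ago2, the Argonaute that cuts its targets, was at 31.0, 26.3 and 42.7 normalized CPM in XX, at 13.5, 31.5 and 55.9 in XO, and at 12.5, 12.7 and 23.8 in XY pools. The XX pools were all above the XY pools, whereas the XO pools overlapped with both. The log2 fold change of XX against XY was 1.02 ± 0.50 (edgeR adjusted p = 0.922), with a 95% interval from -0.10 to 2.13, and 10 of the 17 alternative fits called it. XY against XO gave -1.03 ± 0.50 (edgeR adjusted p = 0.514). With the replicate number as a block, which is the pairing that the XO and XY libraries showed, this difference was -0.96 and passed the unadjusted threshold, and the count of all genes called between XY and XO went from 1092 to 1827. XX against XO gave -0.01 ± 0.49 (edgeR adjusted p = 0.992). On the batch-regressed values it was 1.26 and called.

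Ago1 encodes another Argonaute, with values of 12.5, 14.7 and 3.96 normalized CPM in XX, 26.4, 7.75 and 6.77 in XO, and 22.3, 17.9 and 15.4 in XY. All XX pools were below all XY pools, with a log2 fold change of -0.84 ± 0.60 (edgeR adjusted p = 1), and the XO pools overlapped with both, XO1 being the highest of all 9. In XX3, 13 UMIs stand behind the lowest value. Between XX and XY, the ranges of 3 of the 9 tested members did not overlap (Ago1, Ago2 and Ago3), against 15.8% of all tested genes. Between XX and XO this held for 1 member, Ago3, against 16.4%, and between XY and XO for 0 members against 10.2%.

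The share of each Argonaute in the UMIs of Ago1 to Ago4 does not depend on the scaling of a library. Ago4 was added from the list of RNAi partners. Ago2 made up 22.0%, 23.2% and 31.1% of the Argonaute UMIs in the XX pools, 8.90%, 12.2% and 21.0% in the XO pools, and 7.69%, 8.11% and 11.4% in the XY pools. All 3 XX pools were above the other 6. The pools had 292–693 Argonaute UMIs each, and the 95% Wilson interval, which covers counting error only, was 18.2–26.4% for XX1 and 17.5–24.9% for XO3, so the nearest pools of XX and XO overlapped in counting error. The mean share was 25.5 ± 4.94% in XX, 14.0 ± 6.24% in XO and 9.07 ± 2.03% in XY (SD, n = 3).

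Ago3 took the complementary course. Its share was 66.8%, 61.6% and 64.2% in XX, 70.2%, 83.8% and 75.0% in XO, and 74.6%, 75.5% and 76.6% in XY pools, and no XX pool reached the lowest of the others. Ago4 was at 1.78–2.28% in XX, 1.00–3.42% in XO and 3.99–4.99% in XY, so XY pools were above all others. Ago1 ranged from 2.54 to 17.5% and overlapped between all genotypes. Exact two-sided permutation tests of 3 pools against 3 cannot give a p below 0.1, which Ago2 and Ago3 reached for XX against XO and for XX against XY and Ago4 for XX against XY and for XY against XO. Adjusted over the 12 comparisons of shares, these exact p-values were 0.2. The comparisons share their pools and the shares add up to 100%, so they are not independent of each other.

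**Figure D3:**
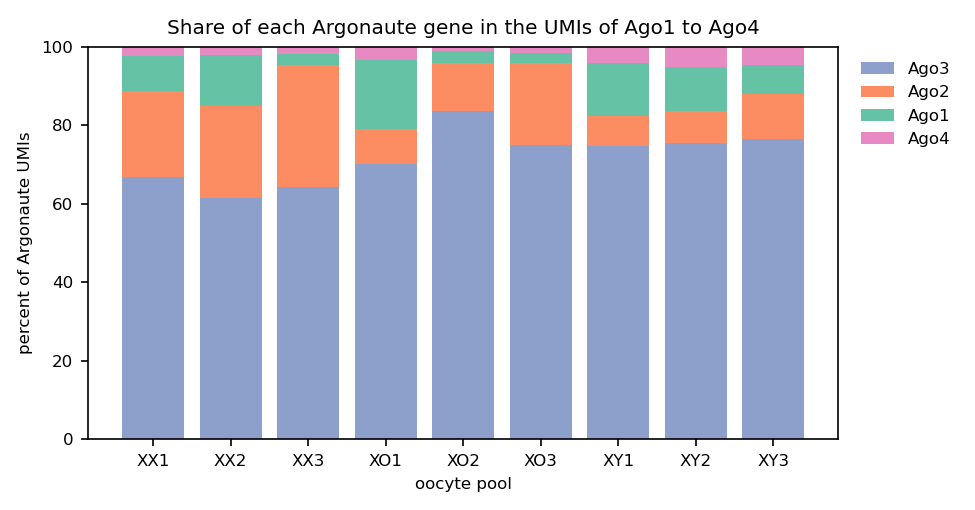
Share of Ago1, Ago2, Ago3 and Ago4 in their summed UMIs (vertical axis, percent) in each of the 9 pools, as stacked bars. Ago2 takes 22.0–31.1% in XX pools, 8.90–21.0% in XO pools and 7.69–11.4% in XY pools.

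Piwil2, the PIWI protein among the members, was scarce, and with an 8.18-fold difference between its highest and lowest pool it varied the most among the tested members. It had 16, 10 and 26 UMIs in the XX pools, 6, 41 and 45 in the XO pools, and 10, 21 and 49 in the XY pools, which correspond to 5.70, 3.50 and 7.92, to 3.11, 21.2 and 25.4, and to 4.65, 6.84 and 14.8 normalized CPM. XO2 and XO3 were the highest of all pools and XO1 the lowest. The edgeR log2 fold change of XX against XO was -1.52 ± 0.71 (adjusted p = 0.287), and -1.97 without XO1, with an edgeR adjusted p of 0.0166. XX against XY gave -0.63 ± 0.70 and XY against XO -0.89 ± 0.69, with edgeR adjusted p-values of 1 and 0.637. On the batch-regressed values XY against XO was called with the opposite sign.

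Ddx4, the helicase of germ cell granules, showed little difference between genotypes. Its level was 629, 668 and 408 normalized CPM in XX, 608, 438 and 420 in XO, and 759, 578 and 402 in XY pools, and the 3 ranges overlapped. Pool 3 was the lowest in each genotype. The log2 fold changes were 0.22 ± 0.36 for XX against XO, -0.03 ± 0.36 for XX against XY and 0.25 ± 0.36 for XY against XO, with edgeR adjusted p-values of 0.755, 1 and 0.803. The 95% intervals reached from -0.60 to 1.04, from -0.84 to 0.79 and from -0.57 to 1.06. Relative to the median of all genes, the log2 fold changes were 0.68, 0.16 and 0.55. Of the 17 alternative fits, only limma on the batch-regressed values called XX against XO, at 0.51. That fit called 43.5% of all genes.

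Mael, known to act in transposon silencing, was at 16.0, 15.8 and 13.4 normalized CPM in XX, at 34.2, 12.4 and 6.77 in XO, and at 22.3, 15.3 and 16.3 in XY pools. XO1 was the highest and XO3 the lowest of all 9 pools. Its log2 fold changes were -0.24 ± 0.51, -0.25 ± 0.50 and 0.01 ± 0.51 in the order of the comparisons above (edgeR adjusted p = 0.807, 1 and 0.996). Without XO1, Mael was called higher in XY than in XO, by 0.97 on the log2 scale.

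Tdrd1, a Tudor scaffold that binds PIWI proteins, was at 150, 125 and 187 normalized CPM in XX, at 82.3, 260 and 286 in XO, and at 108, 147 and 197 in XY pools. XO2 and XO3 were above all other pools and XO1 below all. The log2 fold changes were -0.44 ± 0.46 for XX against XO, 0.03 ± 0.46 for XX against XY and -0.47 ± 0.46 for XY against XO, with edgeR adjusted p-values of 0.607, 1 and 0.704. Tdrd9, a Tudor protein with a helicase domain, was lower, at 12.8, 11.6 and 14.3 normalized CPM in XX, at 8.80, 19.1 and 28.2 in XO, and at 14.9, 7.81 and 11.2 in XY. Again XO2 and XO3 were above all other pools. Its log2 fold changes were -0.53 ± 0.43, 0.20 ± 0.43 and -0.73 ± 0.43, with edgeR adjusted p-values of 0.501, 1 and 0.559. Without XO1, XX against XO gave -0.78 for Tdrd1 and -0.83 for Tdrd9, and XY against XO -0.77 and -1.02, all below the unadjusted threshold of edgeR. On the batch-regressed values Tdrd1 was called with the opposite sign for XX against XO, at 0.81, and for XY against XO.

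Mov10l1, the helicase that acts at the start of piRNA production, had 4, 5 and 10 UMIs in XX, 0, 6 and 17 in XO, and 4, 8 and 8 in XY pools. Its mean level was 2.07 ± 0.86 normalized CPM for XX, 4.23 ± 4.90 for XO and 2.29 ± 0.39 for XY (SD, n = 3). The means were above the lowest detectable amount of each genotype, but the counts are too few for a test here.

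The members also differed among the XO pools, and in opposite directions. In XO1, Dicer1, Ddx4, Mael and Ago1 were the highest of the XO pools, and Tdrd1, Ago3, Ago2, Tdrd9, Piwil2 and Mov10l1 were the lowest. On the scale of log2(normalized CPM + 1), XO1 minus the log2 of the mean of XO2 and XO3 was 1.73 for both Mael and Ago1, 0.93 for Dicer1 and 0.50 for Ddx4. It was -0.97 for Ago3, -1.33 for Tdrd9, -1.63 for Ago2, -1.71 for Tdrd1, -2.57 for Piwil2 and -2.88 for Mov10l1. The mean Piwil2 level of XO2 and XO3 was 7.50 times that of XO1.

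In all, 6 of the 9 tested members moved beyond 1 log2 unit in XO, where 52.9% of all tested genes did. The same measure for pool 1 against the others put 1 tested member, Piwil2, beyond 1 in XY, where 20.8% of all genes were, and 0 in XX, where 3.59% were. Dicer1, Ddx4, Mael and Ago1 were also the highest of the XY pools in XY1, and Tdrd1, Ago2, Piwil2 and Mov10l1 the lowest. Tdrd9 was the highest in XY1 and Ago3 lay between the others.

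Measures of the libraries moved with this spread. Of 15 ERCC spike-ins with at least 20 UMIs in every pool, 5 differed by over 1 log2 unit in their share of the spike-in total between XO1 and the other XO pools, from -5.41 to 1.20, against 2 in XY and 1 in XX. Over 10977 tested genes with a known transcript GC content, the Spearman coefficient between GC content and the XO1 difference was -0.44, with medians of 0.51, -0.52 and -1.22 in genes of low, middle and high GC. These are values across genes of the same libraries. The members had a GC content of 41.8% (Ago3) to 50.8% (Tdrd9). Ago1 and Tdrd9, at 50.7% and 50.8%, moved in opposite directions in XO1, as did Dicer1 and Tdrd1 at 47.3% and 47.5%. The part of the library preparation in these values was not tested.

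**Figure D4:**
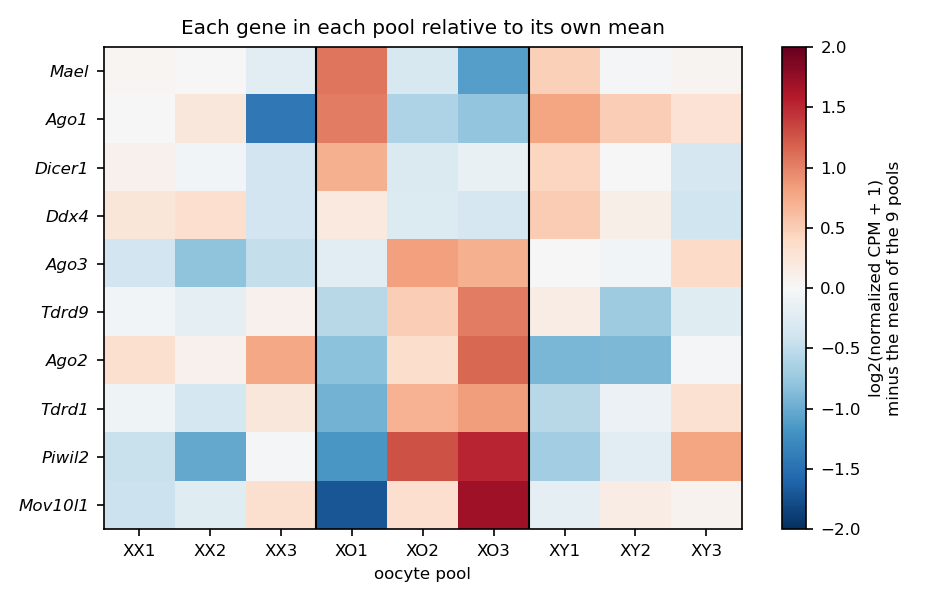
Log2(normalized CPM + 1) of each gene in each pool minus its mean over the 9 pools (colour, from blue for low to red for high), with the genes ordered by XO1 minus the mean of XO2 and XO3. Mael, Ago1, Dicer1 and Ddx4 are high in XO1 and XY1, and Ago2, Tdrd1, Piwil2 and Mov10l1 are low in both.

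Other genes of the pathways were taken from a list of 14 RNAi partners and a list of 24 piRNA partners. All 38 were found and 29 tested. Of the 12 tested RNAi partners, none was higher and 2 were lower in XX compared with XO, with a median log2 fold change of -0.41. This is 16.7% of the partners, near the 18.1% of all genes called in either direction. Between XX and XY, 1 was lower in XX, which is 8.33% against 5.80% of all genes (median -0.12). Between XY and XO, 1 was higher and 1 lower in XY, which is 16.7% against 9.93% of all genes (median -0.18). Of the 17 tested piRNA partners, 6 were lower in XX than in XO and 0 higher, which is 35.3% against 18.1% of all genes, with a median of -1.03. Between XX and XY none was called, against 5.80% of all genes, with a median of -0.12. Without a filter on low counts 1 of 24 passed against 4.33% of all genes, and with limma 6 of 17 against 22.4%. DESeq2 called 0, against 6.33% of all genes with the spike-in factors and 5.25% with its own factors. Between XY and XO, 6 were lower and 0 higher in XY, again 35.3%, against 9.93% of all genes called and 8.24% called lower, with a median of -0.95. In the fit of all 9 pools no gene of either list passed the edgeR adjustment, and the comparisons with XO share the XO pools. Without XO1, 5 of 14 RNAi partners and 12 of 18 piRNA partners were lower and 0 higher in XX than in XO. In that fit 35.1% of all genes were called. The adjustment was passed by 2 RNAi and 8 piRNA partners, and by 2633 of all 11590 genes tested. Between XY and XO without XO1, 4 RNAi partners were lower and 1 higher and 11 piRNA partners were lower and 0 higher in XY. In that comparison 29.9% of all genes were called. The adjustment was passed by 2 RNAi and 5 piRNA partners, and by 1213 of all 11590 genes tested. On the batch-regressed values most calls of all genes were higher in the first genotype, the direction that the paper reported for many autosomal genes. They were 3972 higher and 814 lower (43.5% called) for XX against XO and 4117 higher and 608 lower (43.0% called) for XY against XO. Of the RNAi partners, 5 were then called higher and 0 lower in XX for XX against XO and 6 higher and 0 lower in XY for XY against XO. Of the piRNA partners, 4 were then called higher and 3 lower, and 4 higher and 4 lower, in these comparisons. With TMM factors of the genes, 0 RNAi partners and 5 piRNA partners, all lower in XX, were called between XX and XO, against 11.9% of all genes.

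Ago4, the remaining Argonaute, was the RNAi partner that differed in XY. It was at 3.21, 2.45 and 2.44 normalized CPM in XX, at 5.18, 2.58 and 3.95 in XO, and at 6.51, 7.81 and 9.66 in XY pools. All XY pools were above all others. Its log2 fold change was -1.56 ± 0.39 for XX against XY (edgeR adjusted p = 0.384) and 1.03 ± 0.39 for XY against XO (edgeR adjusted p = 0.485). The former was called in all 17 alternative fits and the latter in 13, which did not include leaving out XO2 (0.81), XO3 (1.04) or XY3 (1.00). Without XO1 they were -1.60 and 1.38. These values rest on 116 UMIs over the 9 pools.

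Of the other RNAi partners called, Tsn and Tsnax encode translin and its partner, which together form a nuclease that removes passenger strands. Tsnax was at 8.40–14.3 normalized CPM in XX and 11.9–44.0 in XO, a log2 fold change of -1.29 ± 0.46 (edgeR adjusted p = 0.218). It was -1.62 without XO1, and no longer called without XX1 (-1.16), XX2 (-1.11) or XO3 (-0.80). Nor was it called with TMM factors of the genes (-0.79) or on the batch-regressed values (-0.10). Tsn was lower in XY than in XO, by -0.65 ± 0.28 (edgeR adjusted p = 0.498). It was -0.72 and still called without XO1, but was called in 5 of 17 alternatives and in none that left out another pool. Tnrc6b, a GW182 protein that Argonautes recruit, was lower in XX than in XO, by -0.61 ± 0.27 (edgeR adjusted p = 0.276). Without XO1, Tnrc6b was at -0.36 and no longer called. It was called in 5 of 17 alternatives, and of the 9 that left out a pool only without XO3. Tarbp2, a Dicer partner below the filter, was at 1.55, 11.4 and 27.7 normalized CPM in the XO pools and at most 3.62 in the others, and was singled out after its values were seen.

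Among the piRNA partners, Asz1, a protein of the germ cell mitochondrial granules, was at 51.6, 32.2 and 42.0 normalized CPM in XX, at 82.3, 83.8 and 118 in XO, and at 51.1, 33.5 and 41.4 in XY pools. All XO pools, XO1 included, were above the other 6. Its log2 fold change was -1.17 ± 0.30 for XX against XO (edgeR adjusted p = 0.204) and the same, -1.17 ± 0.30, for XY against XO (edgeR adjusted p = 0.485). Both were called in all 17 alternative fits and were -1.22 and -1.21 without XO1. They were smaller without XO3 (-0.98 and -0.98), with TMM factors of the genes (-0.73 and -0.88) and on the batch-regressed values (-0.56 and -0.69). Henmt1, which methylates the 3′ end of piRNAs, was at 29.6, 23.8 and 26.2 normalized CPM in XX, at 34.7, 75.0 and 117 in XO, and at 31.1, 25.4 and 29.3 in XY. Here too the XO pools were above the others, XO1 by the smallest margin. Both comparisons, -1.51 ± 0.40 and -1.40 ± 0.40, were called in all 17 alternatives and were -1.82 and -1.68 without XO1. The Henmt1 differences were smaller without XO3 (-1.05 and -0.94) and with TMM factors of the genes (-1.01 and -1.05). On the batch-regressed values they were -0.42 and -0.44.

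The remaining piRNA partners called were Fkbp6, Tdrd12, Rnf17, Pnldc1 and Exd1. Fkbp6, a cochaperone, had the greatest differences of those named, -2.47 ± 0.76 for XX against XO and -2.78 ± 0.77 for XY against XO, with 24.3 and 77.3 normalized CPM in XO2 and XO3 and 6.73 in XO1, against 3.26–8.45 in the XX and XY pools. The changes were -2.95 and -3.20 without XO1 and -1.26 and -1.57 without XO3, where the former was no longer called. Tdrd12, a Tudor helicase, was at -1.70 ± 0.52 and -1.24 ± 0.51 in the same order, and XO1 lay within the XX and XY pools. Without XO1 these were -2.08 and -1.59, and without XX1 the former was -1.62 and no longer called. The latter was called in 9 of 17 alternatives, and no longer without XO3 (-0.68), XO2, XX1, XX3, XY1 or XY2, with TMM factors of the genes (-0.89) or on the batch-regressed values, where it was near 0. Rnf17, a Tudor protein, was at -0.89 ± 0.30 and -0.77 ± 0.30. Without XO1 these were -0.72 and -0.59, and the latter was no longer called, nor was it without XO3, XY2 or XY3. With TMM factors of the genes neither was called, at -0.47 and -0.50. Pnldc1, the trimmer of piRNA 3′ ends, was called for XX against XO, at -1.59 ± 0.52. It was -1.98 without XO1, and no longer called without XO3 (-0.90) or XX1 (-1.47). Exd1 was called for XY against XO, at -1.42 ± 0.51. It was -1.76 without XO1, and no longer called without XO3 (-0.93), XY1 (-1.35) or XY2 (-1.22). On the batch-regressed values Fkbp6, Tdrd12 and Pnldc1 for XX against XO and Exd1 for XY against XO were at -0.44 to -0.17 and not called. Whether these differences are unequal between the comparisons was not tested.

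**Figure D5:**
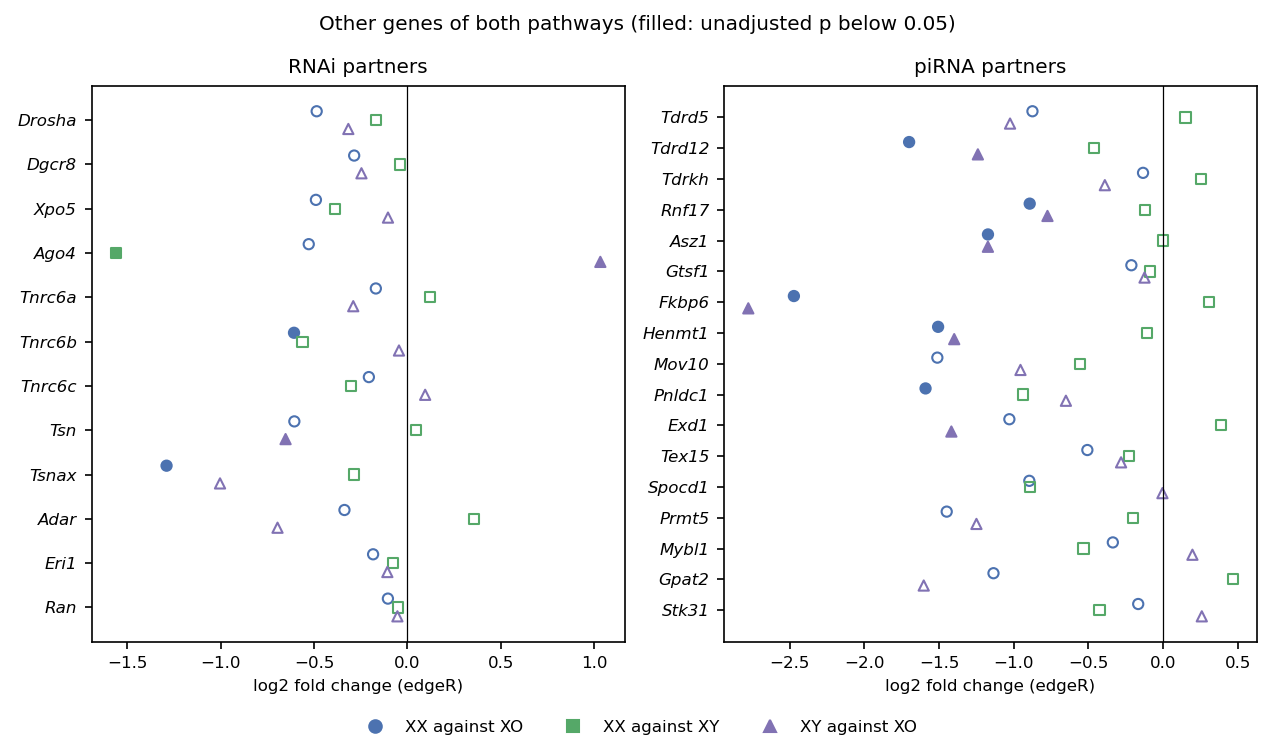
Log2 fold changes (horizontal axes, edgeR) of the 12 tested RNAi partners (left) and 17 tested piRNA partners (right) in the 3 comparisons, the first genotype minus the second, with filled symbols for an unadjusted p below 0.05. The spike-in factors put the median of all genes at -0.46 for XX against XO and -0.30 for XY against XO. With them, all 29 lie below 0 for XX against XO, as do 15 of the 17 piRNA partners for XY against XO. The share of all genes below 0 was not counted here, so these counts are not read as a result.

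The genes whose profile over the 9 pools was nearest to that of a member were sought among the 7269 tested genes whose mean reached 10 normalized CPM, by the root mean square difference of centred log2(normalized CPM + 1). For Dicer1 they were Psmc6 at 0.08, Pdcd10 at 0.08 and Ckap5 at 0.09, against a spread of Dicer1 itself of 0.34. For Ddx4 they were Tgfb2 at 0.08, Cul1 at 0.08 and Txndc9 at 0.10, against 0.33. For Ago2 they were Atp2b3 at 0.09, Kantr at 0.25 and Hnrnph2 at 0.26, against 0.71. Those of Ago2 all lie on the X chromosome, while Ago2 itself is on chromosome 15. The share of X-linked genes among all those compared was not counted here, so their place is not read as a result. Atp2b3 was at 12.8, 9.80 and 15.5 normalized CPM in XX, at 4.66, 11.9 and 20.3 in XO, and at 4.65, 5.21 and 9.66 in XY pools, so that its XX pools, like those of Ago2, were above its XY pools, here by a gap as narrow as 9.80 to 9.66.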

How the data were processed

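Oocyte pools of 3 genotypes, 3 each, were grouped by GEO's labels, and the XO column without a number was taken as XO1. After alignment with HISAT2 to GRCm38 (paired ends, strand kept), the authors counted UMIs at the 5′ end and deposited counts for 28052 genes and 79 ERCC spike-ins. 1 further entry, with 0 UMIs, stayed out. The deposited normalized CPM is a signal that the authors made from these counts, and equals the count divided by gene total and spike-in TMM factor to within 5e-15. The authors also deposited log2 values with batch effects regressed out, used here as an alternative only.

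Counts were tested with edgeR 4.0.16 in R 4.3.3 (filterByExpr, quasi-likelihood F test, two-sided, 1 mean per genotype, all 9 pools in 1 fit, spike-in factors; common dispersion 0.201), as the values are counts, where the study used limma with surrogate variables. Calls were made at an unadjusted p below 0.05. SE and 95% intervals come from the same fit. The procedure was tested on simulated data. DESeq2 1.42.0, limma 3.58.1, other scaling, no filter, a replicate block and leaving out each pool were alternatives; GC offsets were chosen after seeing the data.

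Deviations from genotype means of XO and XY pools with the same number correlated at 0.830, 0.278 and 0.773, which by the rule used here pairs them. XX with XO gave 0.468, -0.447 and 0.679, and XX with XY 0.435, -0.060 and 0.726. What a number marks is not given in the sources used here.

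The members and gene lists were chosen with earlier results of these data known. All members, each listed gene called in a comparison (the 6 of lowest p if more) and the 3 genes nearest in profile to Dicer1, Ago2 and Ddx4 are named. Promoters are RefSeq's (GRCm38.p6), gene overlaps and GC content GENCODE vM21's.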

Additional observations from a re-analysis of the deposited data

How the results depend on the processing

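Members called at an unadjusted p below 0.05 numbered 1 for XX against XO, 0 for XX against XY and 0 for XY against XO. Of all genes, 18.1%, 5.80% and 9.93% were called in these comparisons. In the same order of comparisons the members called were 0, 1 and 0 with TMM factors of the genes, 2, 0 and 0 with DESeq2 and the spike-in factors, 1, 1 and 0 with DESeq2's own factors, 2, 1 and 1 without a filter, 2, 1 and 1 with the replicate block, 3, 3 and 2 with limma on the batch-regressed values, 1, 1 and 0 with GC offsets, and 2, 1 and 1 with GC offsets and the replicate block. Of all genes, TMM factors of the genes called 11.9%, 5.35% and 9.07%, and no filter 14.1%, 4.33% and 9.75%. DESeq2 called 21.2%, 6.33% and 12.1% of all genes with the spike-in factors and 13.7%, 5.25% and 10.3% with its own. The replicate block called 23.0%, 9.16% and 16.6%, and limma 43.5%, 22.4% and 43.0%. GC offsets called 19.1%, 7.14% and 10.4%, and with the block 23.4%, 10.2% and 16.6%. Leaving out 1 pool gave 0–4, 0–2 and 0–6 members, against 7.16–35.1%, 3.3–11.0% and 3.23–29.9% of all genes. For XX against XO the count of members was 0 without XX1 or XX2 and 4 without XO1. For XX against XY it was 2 without XO1 and 1 without XO3 or XY3, and for XY against XO 6 without XO1. On the batch-regressed values, 4 fold changes passed the test with the opposite sign, which were Ago2 at 1.26 and Tdrd1 at 0.81 for XX against XO and Piwil2 at 0.68 and Tdrd1 at 0.63 for XY against XO. Ago2 and Tdrd1 for XX against XO and Ago2 for XX against XY also passed the Benjamini-Hochberg adjustment on these values. So did Piwil2 and Tdrd1 for XY against XO, and 3541, 721 and 3387 of all 10993 genes in the same order. The cause of the opposite signs was not tested. Since components were removed before the test, its spread is understated.

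Of both lists together, 8, 1 and 8 of the 29 tested genes were called. The shares of all genes called in each fit are those given for the members above. TMM factors of the genes gave 5 for XX against XO and 5 for XY against XO, and limma 8 for XX against XY and 14 for XY against XO. For XX against XY, there were 2 with DESeq2 and the spike-in factors, without a filter, with the replicate block and with GC offsets and the block, and 3 with GC offsets. Leaving out 1 pool gave 5–17, 1–4 and 3–16, with the highest counts of 17, 4 and 16 without XO1. In that fit 35.1%, 11.0% and 29.9% of all genes were called.

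Among all genes, calls higher in the first genotype made up 7.75%, 24.3% and 17.0% of calls, and 49.5%, 48.3% and 59.5% with TMM factors of the genes, 29.6%, 49.9% and 29.7% with DESeq2's own factors, and 83.0%, 45.6% and 87.1% with limma. Calls numbered 1986, 638 and 1092. The replicate block gave 1007 for XX against XY and 1827 for XY against XO, GC offsets with the block 1117 and 1826, TMM factors of the genes 1311 for XX against XO, no filter 3953, 1214 and 2735, limma 4786, 2465 and 4725, and leaving out 1 pool 828–4073, 384–1280 and 373–3470. Counts of a few UMIs limit Mov10l1, Piwil2 and Ago1, and 3 pools per genotype leave the 95% intervals of most members wider than a log2 unit.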
